A study of Mus musculus with 6 samples.

Results

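Neutrophils were identified among single cells of mammary glands and mammary tumors of C3(1)-Tag mice by a gate on raw counts of unique molecular identifiers (UMIs), tags that let each captured RNA molecule be counted once. A cell belonged to the class if it had at least 200 detected genes, a mitochondrial share of UMIs under 10%, at least 2 UMIs each of S100a8 and S100a9, at least 1 UMI of Retnlg, Cxcr2, Csf3r or G0s2, and no UMI of Epcam, C1qa or C1qb. In all, 63 of 22244 cells (0.283%) met these conditions, and 60 of them came from the 2 Tumor libraries. Cells of the same library with at least 1 UMI of C1qa, at least 1 UMI of Csf1r, Cd68, Adgre1 or Mrc1 and no UMI of Epcam served as macrophages for comparison, 266 in the Tumor libraries. The neutrophils were thus chosen by the UMIs of 9 genes in the same cells that are described here, so the levels of the gate genes and every difference between neutrophils and macrophages are given as a description, with no test.

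The 6 libraries covered 3 disease states of female C3(1)-Tag mice on the FVB/NJ background, with 2 libraries for each state. Prepuberty libraries came from whole mammary gland at 5 weeks of age, DCIS libraries from whole gland containing ductal carcinoma in situ at 14 weeks, and Tumor libraries from palpable tumors at more than 18 weeks. All mice carried the SV40 large T antigen transgene, which in this line is driven by the regulatory region of the rat C3(1) prostatic steroid-binding protein gene and is active in mammary epithelium, and no mouse without the transgene was part of these libraries. Whether the paired libraries of each state came from separate animals is not given in the labels, which only number them. According to the study's methods, red blood cells were lysed, tumors were dissociated with another kit than glands and the second Tumor library was made with a later reagent version, whereas the labels give the same digestion and the same version for all. The libraries held 29652183 to 60741860 UMIs in the kept cells, with median depths of 6624 to 13745 UMIs per cell, and 9 to 39 cell barcodes were shared between any 2 libraries. State and dissociation, and for the Tumor libraries kit, animal and tumor, therefore cannot be told apart.

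Neutrophils are short-lived granulocytes that the bone marrow makes under the control of G-CSF, whose receptor is encoded by Csf3r, and that blood delivers to inflamed tissue along gradients of CXCR2 ligands. They fill their granules in a fixed order during development, the peroxidase and proteases of primary granules first and the gelatinase of tertiary granules last, and the mature cell holds little RNA. In tumors they are known as a source of IL-1β, chemokines and proteases, and subsets of them restrain T cells.

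Neutrophils were rare outside the Tumor libraries. No neutrophil was found among 4388 cells of Prepuberty 1, which allows a share of up to 0.0684% when 3 cells are taken as the limit (0.0840% as the exact upper bound), and none among 4003 cells of DCIS 2, which allows up to 0.0749% (0.0921%). Prepuberty 2 held 1 neutrophil among 3603 cells (0.0278%) and DCIS 1 held 2 among 3168 (0.0631%). Tumor 1 held 23 among 4476 cells, a share of 0.514% with an exact Clopper-Pearson 95% interval of 0.326 to 0.770%. Without the cells admitted by G0s2 alone it held 12, a share of 0.268% (0.139 to 0.468%). Tumor 2 held 37 among 2606 cells, a share of 1.42% with an interval of 1.00 to 1.95%. At this gate both Tumor libraries were above the other 4, and Tumor 2 was above Tumor 1 beyond counting error. With a minimum of 500 genes per cell, however, 0 neutrophils were left in Tumor 1, as in the Prepuberty and DCIS libraries, and 7 in Tumor 2. Intervals and limits here and below cover counting error only. No test of state was made, because fewer than 10 neutrophils came from each Prepuberty and DCIS library, and with 2 Tumor libraries set against the 4 others the smallest two-sided p of an exact permutation test is 0.0667.

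**Figure D1:**
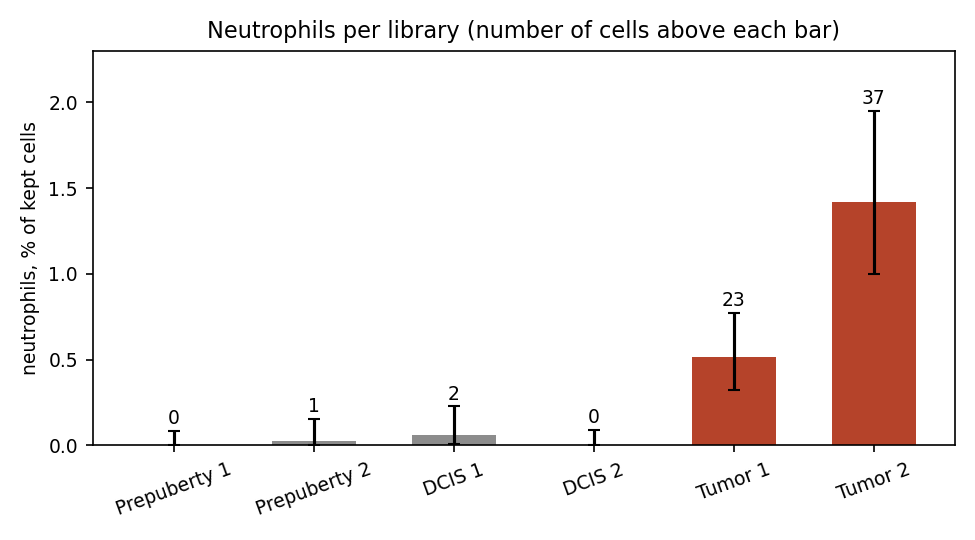
Neutrophils as a percentage of the kept cells of each library, with exact 95% binomial intervals as error bars and the number of neutrophils above each bar. The 2 Tumor libraries (red) stood at 0.514 and 1.42%, above the 4 Prepuberty and DCIS libraries (gray), which held 3 neutrophils in all.

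Macrophages, unlike neutrophils, were more numerous in Tumor 1 (197) than in Tumor 2 (69), and the number of neutrophils per macrophage was 0.117 in Tumor 1 and 0.536 in Tumor 2. The same number was 0.0323 in Prepuberty 2 and 0.0142 in DCIS 1, each of which rested on 1 or 2 neutrophils. Among cells with a UMI of Ptprc, which encodes the pan-leukocyte protein CD45, counted together with the neutrophils themselves, neutrophils made up 5.97% in Tumor 1 and 12.5% in Tumor 2. Of the neutrophils, 4 of 23 in Tumor 1 and 21 of 37 in Tumor 2 had a Ptprc UMI of their own.

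S100a8 and S100a9, which encode the 2 chains of the calcium-binding protein calprotectin, were present in every cell by the rule. In the neutrophils of Tumor 1, S100a8 had 5 to 193 UMIs per cell (median 14) and summed to 783 UMIs, or 376 per 10000 UMIs of the class. In those of Tumor 2 it had 3 to 356 UMIs per cell (median 86) and summed to 3932, or 1029 per 10000. The ranges overlapped, and the median cell of Tumor 2 had the higher count. S100a9 had 386 per 10000 in Tumor 1 and 740 per 10000 in Tumor 2. On the GRCm38 build S100a8 lies at chr3:90668978-90670035 on the plus strand and S100a9 nearby at chr3:90692632-90695721 on the minus strand, both protein-coding genes.

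The genes of the third condition differed in how many cells showed them. Retnlg, which encodes a resistin-like secreted protein of granulocytes, was seen in 7 of 23 neutrophils of Tumor 1 (99 UMIs) and in 22 of 37 of Tumor 2 (298 UMIs). Cxcr2, the receptor for the neutrophil-attracting CXC chemokines, was seen in 5 of 23 and 21 of 37 cells. Csf3r was seen in 5 of 23 and 25 of 37 cells. In contrast, G0s2, an inhibitor of triglyceride lipase, was seen in 22 of 23 cells of Tumor 1 (179 UMIs) and 26 of 37 of Tumor 2 (112 UMIs). G0s2 was the gene on which the gate rested most in Tumor 1, where 11 of 23 neutrophils had none of the other 3 genes, against 2 of 37 in Tumor 2.

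Most of the Retnlg RNA of the Tumor libraries lay in the gated cells. Neutrophils held 89.2% of all Retnlg UMIs of Tumor 1 and 99.0% of those of Tumor 2, and macrophages had none, which makes the level in neutrophils at least 2095-fold and at least 2057-fold higher when 3 UMIs are set as the floor of the macrophage sum. For S100a9 the neutrophils' share was 66.6% in Tumor 1 and 90.7% in Tumor 2, and for S100a8 it was 43.1% and 72.9%. Of cells with an Epcam UMI, 9% in Tumor 1 and 19% in Tumor 2 of a sample of 1000 had a UMI of S100a8, at median depths for these classes of 12582 and 16336.5 UMIs, but only 0.6% in each library did once each cell was thinned to 500 UMIs. After the same thinning 100% of the neutrophils had one. In the macrophages of Tumor 2, 1 cell with the most UMIs of each gene accounted for 73 of 83 S100a8 UMIs and 66 of 67 S100a9 UMIs.

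The edges of the gate held more cells in Tumor 1 than in Tumor 2. In Tumor 1, 2 neutrophils had the minimum of 2 UMIs for the lower of S100a8 and S100a9, and 4 cells that met every other condition were left out with 1 UMI. In Tumor 2, 0 neutrophils were at the minimum and 1 cell was left out. With both S100 genes at 2 or more UMIs but none of the third-condition genes there were 5 cells in Tumor 1 and 0 in Tumor 2. The limit on Epcam left out 14 and 2 cells, the limit on C1qa and C1qb 0 and 2 cells, and the limits on genes and mitochondrial share together 2 and 2 cells.

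The neutrophils were shallow cells. They had 598 to 1657 UMIs (median 815) and a median of 313 detected genes in Tumor 1, and 544 to 1700 UMIs (median 1011) and a median of 449 genes in Tumor 2. Macrophages of the same libraries had median UMI counts of 6091 and 10295. All deposited barcodes had at least 500 UMIs, so the shallowest neutrophils lay close to that floor, and neutrophils with fewer UMIs were not analysed here. Ribosomal protein genes took 3.41% and 3.56% of the neutrophils' UMIs in Tumor 1 and Tumor 2, against 17.7% and 17.5% in macrophages. The 10 most abundant genes took 39.8% and 33.3%.

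The mitochondrial share separated the neutrophils of the 2 tumors. It was 0 to 0.703% (median 0.133%) in Tumor 1 and 1.33 to 8.57% (median 3.36%) in Tumor 2, with no overlap. The medians for macrophages were 2.62% and 3.53%, with overlapping ranges. The 2 neutrophils of DCIS 1 had 0.105% and 0.618% and the neutrophil of Prepuberty 2 had 0.257%, within the range of Tumor 1.

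**Figure D2:**
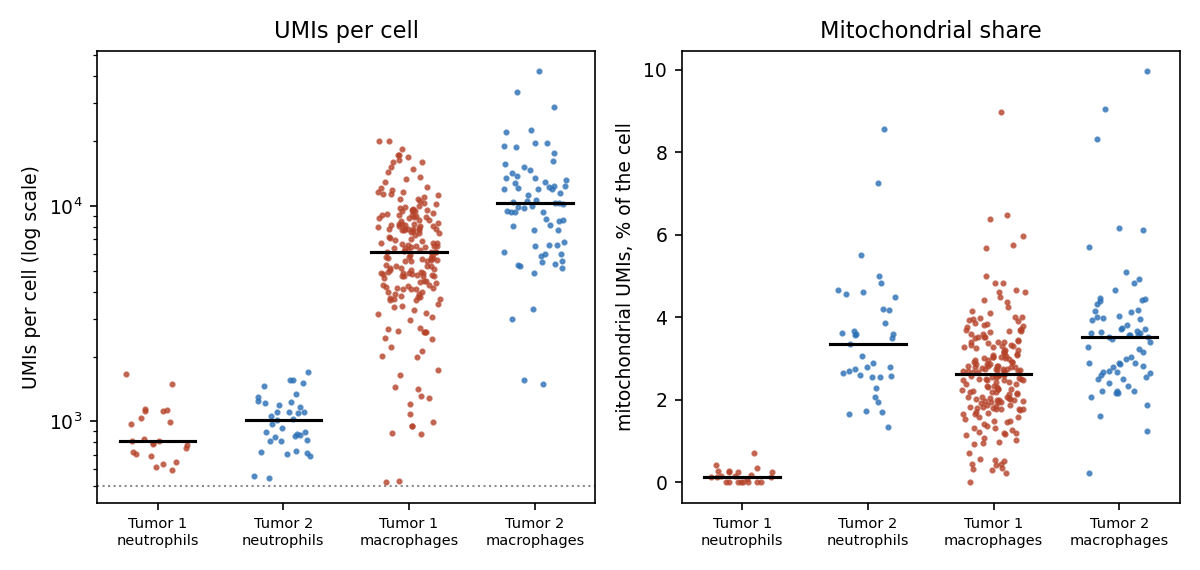
UMIs per cell (left, log scale, with the deposited floor of 500 UMIs dotted) and mitochondrial share of UMIs in percent (right) for each neutrophil and macrophage of Tumor 1 (red) and Tumor 2 (blue), with the median as a black line. Neutrophils had fewer UMIs than most macrophages, and their mitochondrial shares, with medians of 0.133% in Tumor 1 and 3.36% in Tumor 2, did not overlap between the tumors.

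The label of the class was checked against markers that the gate did not read. C1qc is no separate check, since it shares its complex with the gate genes C1qa and C1qb. The limit on those left out 0 cells in Tumor 1 and 2 in Tumor 2. Of 13 macrophage markers, 8 were at 0 in the 60 Tumor neutrophils, among them C1qc, Csf1r, Mrc1, Mertk and Trem2, and the list summed to 12 UMIs per 10000 in Tumor 1 and 6.81 in Tumor 2, against 351 and 183 in macrophages, which were themselves chosen by 4 of these 13 genes. The defining genes of dendritic cells (0 of 7 detected), B cells (0 of 4), mast cells and basophils (0 of 6) and erythrocytes (0 of 5) had no UMI, and neither did the SV40 large T antigen. Eosinophil markers had 1 UMI in all. Of 7 monocyte markers, 3 (Ccr2, F13a1 and Ms4a4c) were at 0, and the list summed to 8 UMIs in Tumor 1 and 23 in Tumor 2, or 3.84 and 6.02 per 10000 against 16.7 and 18.2 in macrophages, with 0 and 10 UMIs of Ly6c2, 3 and 12 of Plac8, 5 and 0 of Fn1 and 0 and 1 of Vcan. Epithelial keratins and junction genes summed to 12 and 9 UMIs, or 5.76 and 2.36 per 10000 against 1.87 and 1.06 in macrophages. Fibroblast genes summed to 0 and 6 UMIs, or 0 and 1.57 per 10000 against 7.91 and 0.493. Cell cycle genes summed to 4 and 7 UMIs, or 1.92 and 1.83 per 10000 against 8.78 and 14.7. Cd3d, which encodes a chain of the T cell receptor complex, was seen in 3 cells of Tumor 1 (4 UMIs) and 12 of Tumor 2 (18 UMIs), whereas Cd3e, Cd3g and Trac were at 0. The part of any of these transcripts in the results below was not tested.

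Neutrophils were compared with macrophages within each Tumor library by summing the UMIs of each class, since cells are not replicates. A gene was called higher or lower when it differed at least 4-fold in the same direction in both libraries with at least 20 UMIs in the higher class of each, counts under 3 being raised to 3. Outside the gate genes, 41 of the 94 genes with enough UMIs were called higher in neutrophils (43.6%) and 93 of 239 were called lower (38.9%). With the gate genes included, the figures were 45 of 98 (45.9%) and 95 of 241 (39.4%). Since the gate chose both classes by expression, nothing is read from these shares. The median log2 ratio of neutrophils over macrophages for all 375 genes with at least 20 UMIs in the Tumor neutrophils was 0.86 in Tumor 1 and 1.16 in Tumor 2. TMM scaling, which aligns the bulk of genes, moved these ratios by -0.76 on the log2 scale in Tumor 1 and -0.29 in Tumor 2 and gave 30 genes higher and 171 lower. When the cells admitted by G0s2 alone were left out, 22 genes were called higher, 21 of them among the 41, and 65 lower.

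Granule genes differed by granule type. All 6 genes of primary granules and granulocyte precursors, Mpo, Elane, Prtn3, Ctsg, Ms4a3 and Fcnb, had no UMI in the 60 cells. Of 13 genes of secondary and tertiary granules and related proteins, 4 reached 20 UMIs (Hp, Wfdc21, Lcn2 and Mmp9), 6 had fewer and 3 (Camp, Chil3 and Padi4) had none. Hp, which encodes the hemoglobin scavenger haptoglobin, had 20 UMIs in 10 cells of Tumor 1 and 92 UMIs in 24 cells of Tumor 2. Its level was 84.7-fold (41.2 to 178) and 476-fold (180 to 1785) that of macrophages, the ranges being 95% counting intervals of the ratio. Mmp9, the gelatinase of tertiary granules, had 4 UMIs in Tumor 1 and 23 in Tumor 2, in 4 and 15 cells, and was 63.5-fold (11.8 to 341) and 5.81-fold (3.49 to 9.32) higher. In Tumor 2, however, 1 macrophage held 80 of the 82 Mmp9 UMIs of its class, and the interval does not cover such differences between cells. Lcn2, an iron-siderophore-binding protein of secondary granules, had 11 and 35 UMIs, 16.2-fold and 25.9-fold above macrophages. Only Hp had enough UMIs in both libraries to be called.

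Other genes with a large difference from macrophages lay outside the granule, receptor and cytokine lists. Gm5483, a stefin-like gene whose reads may be shared with near-identical neighbours, had 48 UMIs in Tumor 1 and 122 in Tumor 2, against 2 and 3 in macrophages. This gave ratios of 1524 (400 to 12944) and 842 (281 to 4141), the first being 1016 with the 2 UMIs raised to 3. Hdc, histidine decarboxylase, which makes histamine, had 21 and 47 UMIs against 4 and 1. Its ratios were 333 (112 to 1336) and 973 (166 to 39258), the second being 324 with the 1 UMI raised to 3. Lrg1, which encodes a leucine-rich glycoprotein stored in neutrophil granules, had 27 and 74 UMIs against 79 and 1. Mxd1, a MYC antagonist of differentiating myeloid cells, was 30.0-fold (19.5 to 45.5) and 93.2-fold (53.7 to 172) higher. Samsn1, an adaptor protein of hematopoietic cells, and Cd24a, a small surface glycoprotein, were higher by 23-fold and 17-fold in Tumor 2 and by 29.6-fold and 71.8-fold in Tumor 1.

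**Figure D3:**
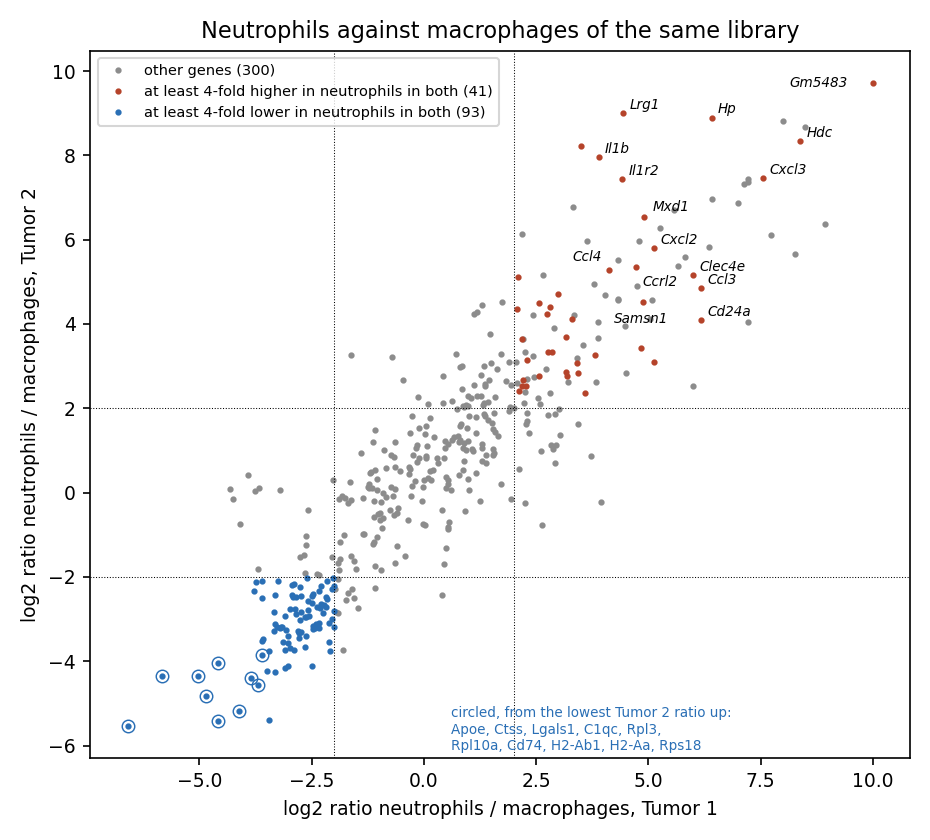
Log2 ratio of neutrophils over macrophages in Tumor 1 (horizontal) and Tumor 2 (vertical) for the genes outside the gate that could be called or had at least 20 UMIs in the Tumor neutrophils, with dotted lines at 4-fold. The 41 genes called higher (red) reached log2 9.99 for Gm5483, the 93 called lower (blue) include the 10 circled genes listed in the panel, and a cluster of mitochondrial genes lay left of the others at a low ratio in Tumor 1 and near 0 in Tumor 2.

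Among receptors of innate sensing with at least 20 UMIs in neutrophils, a limit that favors genes high there, most were above the macrophage level. Of 23 receptor genes, 10 had at least 20 UMIs and 13 had fewer. Of the 7 with enough in both libraries, 6 were called higher (Ccrl2, Clec4e, Clec4d, Cd14, Ccr1 and Il1r2), beside 43.6% of all genes. The median log2 ratio of the list was 3.86 in Tumor 1 and 3.90 in Tumor 2, beside 0.86 and 1.16 for all genes. Clec4e, the Mincle receptor for microbial glycolipids and damaged cells, had 109 UMIs in Tumor 1 and 36 in Tumor 2 and was 63.5-fold (48.2 to 83.6) and 35.5-fold (20.2 to 64.01) higher. Its neighbour Clec4d was seen in 23 of 23 and 22 of 37 cells and was 35.0-fold and 8.51-fold higher. Il1r2, the decoy receptor that binds IL-1 without signaling, had 31 and 42 UMIs and was 21.4-fold (13.8 to 32.5) and 174-fold (68.9 to 563) higher. Cd14, the co-receptor for lipopolysaccharide, had 243 and 197 UMIs and was 9.89-fold and 17.3-fold higher. Trem1, an amplifier of the inflammatory response, was 33.8-fold and 23.9-fold higher but had 15 UMIs in Tumor 2.

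Adhesion and migration genes were at low counts. Of 9 genes, 3 had at least 20 UMIs, Cd44 and Selplg among them, and none had enough in both libraries to be called. Selplg, a ligand of selectins, and Cd44, a hyaluronan receptor, were 4.53-fold and 4.25-fold higher in Tumor 2 and 1.54-fold and 1.91-fold in Tumor 1, where they had 5 and 6 UMIs and where the TMM shift given above would turn the ratio of Selplg below 1.

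Secreted signals took a larger part of the RNA in Tumor 1 than in Tumor 2. Of 22 cytokine and chemokine genes, 11 had at least 20 UMIs, 6 had fewer and 5 (Vegfa, Il6, Il10, Il12a and Cxcl16) had none, and the list summed to 1588 UMIs per 10000 in Tumor 1 and 303 in Tumor 2, against 127 and 70.2 in macrophages. Of the 8 with enough UMIs in both libraries 7 were called higher, beside 43.6% of all genes, and of the 3 that could be called lower 1 (Cxcl16) was, beside 38.9%. Outside the list, the chemokines Ccl2, Ccl7 and Ccl12 were also called lower, with 0 or 1 UMI in the neutrophils of either library and 439 to 1559 in macrophages. Il1b, the precursor of IL-1β, was seen in 22 of 23 neutrophils of Tumor 1 (0 to 59 UMIs per cell, median 12) and 35 of 37 of Tumor 2 (0 to 43, median 9). Its ratio to macrophages was 14.8 (13.3 to 16.5) in Tumor 1 and 249 (170 to 377) in Tumor 2. Neutrophils had 204 and 91.1 UMIs of Il1b per 10000, and macrophages had 13.8 and 0.366. Neutrophils held 7.16% of the Il1b UMIs of the Tumor 1 library and 61.5% of those of Tumor 2.

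The CXCR2 ligand Cxcl2 differed in detection between the tumors. It had 1782 UMIs in Tumor 1, where each of the 23 cells had at least 1 and the median cell 45, and 285 UMIs in Tumor 2, where 27 of 37 cells had at least 1 and the median cell 3. The ratio to macrophages was 34.7 (32.7 to 36.8) and 55.7 (44.4 to 70.3). Cxcl3, another CXCR2 ligand, had 95 and 34 UMIs and ratios of 188 (125 to 291) and 176 (62.8 to 683). Ccl3 and Ccl4, inflammatory CC chemokines, were 72.2-fold and 17.5-fold higher in Tumor 1 and 28.9-fold and 39.1-fold higher in Tumor 2. Without the cells admitted by G0s2 alone, the smaller of the 2 log2 ratios went from 4.13 to 2.11 for Ccl4 and from 7.46 to 4.66 for Cxcl3. Il1rn, the IL-1 receptor antagonist, was 14.1-fold and 9.62-fold higher, and Osm, an IL-6 family cytokine, 4.27-fold and 34.9-fold. Spp1, which encodes osteopontin, went the other way, at 0.267 and 0.313 of the macrophage level.

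Genes linked to restraint of T cells were mostly scarce. Of 13 such genes, 3 reached 20 UMIs, and Ptges, Ido1 and Slc27a2 were among those with none. Acod1, which makes itaconate, had 56 and 4 UMIs, and its ratios were 148 (90.3 to 250) and 16.6 (3.29 to 77.0). Wfdc17, a secreted inhibitor-like protein, had 46 and 272 UMIs and was 0.719 of the macrophage level in Tumor 1 and 6.42-fold higher in Tumor 2. Cd274, which encodes PD-L1, had 5 UMIs and 1 UMI. Of 12 genes reported for SiglecF-high neutrophils of mouse tumors, 3 reached 20 UMIs, and Siglecf itself had 1 UMI in Tumor 1 and 0 in Tumor 2.

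Among interferon-stimulated genes, 10 of 20 had at least 20 UMIs, and 2 of the 5 with enough in both libraries were called higher, beside 43.6% of all genes. Isg15, a ubiquitin-like protein, had 69 and 95 UMIs in 13 and 17 cells and was 7.87-fold (6.03 to 10.1) and 26.2-fold (19.2 to 36.0) above macrophages. Ifitm1, a membrane protein that blocks virus entry, was 11.3-fold and 298-fold higher. Slfn4 and Slfn1, schlafen genes of myeloid cells, were 27.6-fold and 19.9-fold higher in Tumor 1 and 62.1-fold and 46.0-fold in Tumor 2, with 10 and 16 UMIs in Tumor 1. The median log2 ratio of the list was 3.16 in Tumor 1 and 4.33 in Tumor 2, beside 0.86 and 1.16 for all genes.

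Few transcription factors and survival genes had enough UMIs to be called. Of 21 regulators, 11 had at least 20 UMIs, with median log2 ratios of 2.29 and 2.69, and of the 3 with enough in both libraries 1 (Mxd1) was called higher, beside 43.6% of all genes for this and the next lists. Junb, an AP-1 subunit, was seen in 19 of 23 and 36 of 37 cells and was 3.29-fold and 9.75-fold higher. Of 14 survival and death genes, 5 had at least 20 UMIs, with median log2 ratios of 2.08 and 2.77, and the 2 with enough in both libraries, the antiproliferative genes Btg1 and Btg2, were called higher, with ratios of 5.91 and 6.84 for Btg1. NADPH oxidase genes, 3 of 6 with at least 20 UMIs, had median log2 ratios of -0.14 and 1.07, and glycolysis and hypoxia genes, 7 of 19, had 0.50 and -0.21. Of 9 immediate early genes, which tissue dissociation is known to raise, 6 had at least 20 UMIs and 2 of the 3 with enough in both libraries (Dusp1 and Ier3) were called higher, with list sums of 74.4 and 109 UMIs per 10000 against 25.8 and 12.7 in macrophages. The part of dissociation in these levels was not tested, and less RNA of a gene per cell cannot be told apart from fewer cells that express it in such sums.

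Of the genes called lower, many were ribosomal. Ribosomal protein genes, a group chosen after the values were seen, made up 50 of the 95 calls that include the gate genes, and 50 of 77 such genes with enough UMIs were lower, beside 39.4% of all genes, with median log2 ratios of -2.39 and -2.21. Rpl3 had 1 UMI in Tumor 1 and 3 in Tumor 2, against 2482 and 1471 in macrophages. Of 6 genes of antigen presentation by class II molecules, the 3 with enough UMIs to be called lower all were. Cd74, the invariant chain of class II molecules, had 3 and 6 UMIs in neutrophils, 57.2-fold and 20.5-fold below macrophages, and H2-Aa had 0 in both libraries, at least 24.2-fold and at least 16.4-fold lower. Apoe, apolipoprotein E, was 96.9-fold and 46.1-fold lower, Ctss, a lysosomal protease, was 24.05-fold and 64.5-fold lower (with 2 UMIs in Tumor 2, counting interval of the neutrophil over macrophage ratio 0.00188 to 0.0561), and Lgals1, galectin-1, was 17.5-fold and 36.0-fold lower. C1qc had no UMI, at least 28.8-fold and at least 28.5-fold lower, but shares its complex with the gate genes C1qa and C1qb.

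The neutrophils of the 2 tumors were then compared with each other, with the same ratio in macrophages beside each value. With 1 library a side there is no test, and a call means a difference of at least 4-fold with at least 20 UMIs in the higher library. Of 282 genes, 27 were called higher in Tumor 1 (9.57%) and 28 higher in Tumor 2 (9.93%). The 95% counting interval of the ratio excluded 1 for all 55. A call at these limits already entails this, so it adds no support. In macrophages, with many more UMIs, the same rule called 148 of 5910 genes higher in Tumor 1 (2.5%) and 160 higher in Tumor 2 (2.71%). The median log2 ratio of Tumor 1 over Tumor 2 over all genes with at least 20 UMIs was -0.20 in neutrophils and 0.15 in macrophages.

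Genes higher in Tumor 1 included several cytokines. Cytokines and chemokines supplied 6 of the 27 (Cxcl1, Cxcl2, Cxcl3, Ccl3, Il1a and Il1rn) out of 11 tested, beside 9.57% of all genes, with a median log2 ratio of 2.22 for the list in neutrophils and 2.91 in macrophages, beside -0.20 and 0.15 for all genes. Cxcl2 was 855 UMIs per 10000 in Tumor 1 (95% interval 816 to 896) and 74.6 in Tumor 2 (66.2 to 83.8), a ratio of 11.5 (10.1 to 13.04), and the ratio in macrophages was 18.4. Ccl3 was 203 and 15.7 per 10000, a ratio of 12.9 (9.85 to 17.2), beside 5.17 in macrophages. Both intervals lay far from 1, and both genes were higher in Tumor 1 in either class. Of the 6 genes, only Cxcl2 and Ccl3 kept their call when the cells admitted by G0s2 alone were left out. Cxcl3 then went the other way, with 6 UMIs in Tumor 1 and 34 in Tumor 2 (log2 ratio -0.62). Cxcl1, a CXCR2 ligand, had 49 UMIs in 5 cells of Tumor 1 and 1 UMI in Tumor 2 (ratio 89.8, interval 15.4 to 3620), beside 80.6 in macrophages. Il1a, which encodes IL-1α, had 31 UMIs in 10 cells of Tumor 1 and none in Tumor 2, at least 18.9-fold higher against a floor of 3 UMIs, beside 8.31 in macrophages. Il1b was 204 and 91.1 per 10000, a ratio of 2.24 (1.94 to 2.59) that was under the 4-fold limit, whereas its ratio in macrophages was 37.6.

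Nfkbia, which encodes the NF-κB inhibitor IκBα and is itself a target of NF-κB, was seen in 22 of 23 neutrophils of Tumor 1 (295 UMIs) and 15 of 37 of Tumor 2 (34 UMIs). Its level was 15.9-fold higher in Tumor 1 (11.1 to 23.4), while in macrophages the ratio was 2.21. Hilpda, a hypoxia-induced protein of lipid droplets, had 122 UMIs in 13 cells of Tumor 1 and 1 UMI in Tumor 2 (ratio 224, interval 39.4 to 8907), beside 4.17 in macrophages. Acod1 had 56 UMIs in 17 cells and 4 UMIs in 3 cells, a ratio of 25.7 (9.49 to 97.5), beside 2.87. Ifrd1, an interferon-related regulator of neutrophil function, had 35 UMIs and 1 UMI (ratio 64.2, interval 10.8 to 2606), beside 7.28. Of the 27 genes, 11 were also at least 4-fold higher in the macrophages of Tumor 1, 16 were higher there by less, and 0 went the other way.

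**Figure D4:**
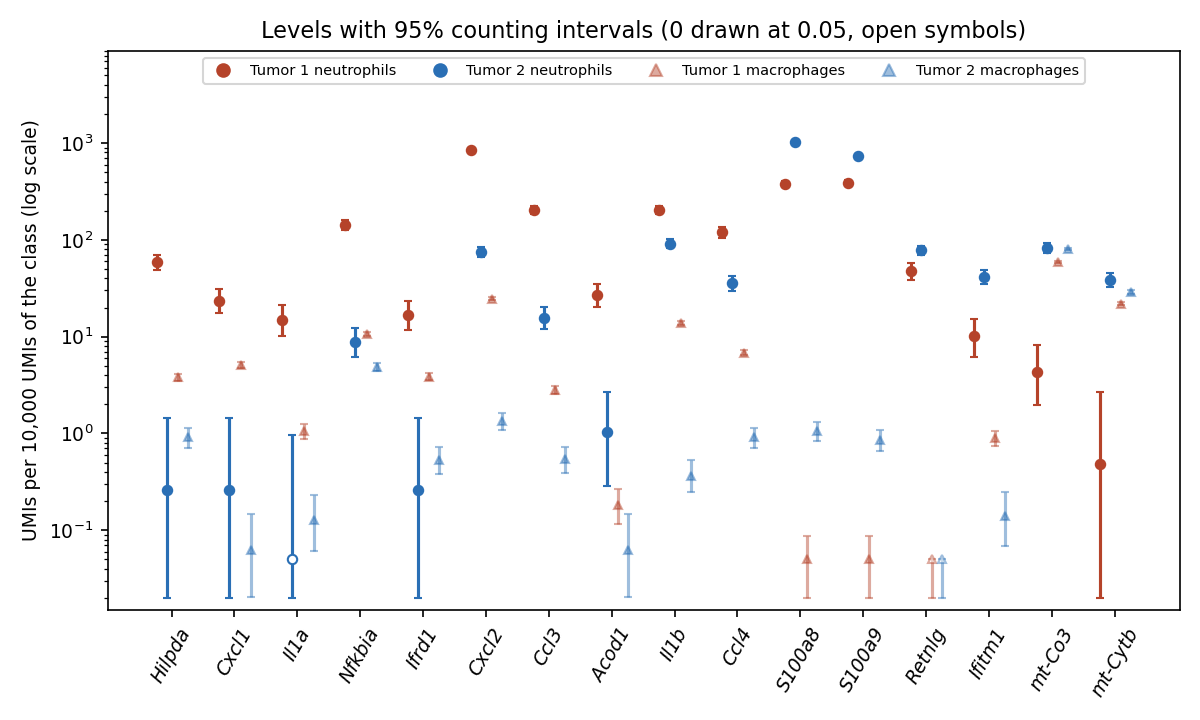
Levels of 16 genes in UMIs per 10000 UMIs of the class (log scale), for neutrophils (circles) and macrophages (triangles) of Tumor 1 (red) and Tumor 2 (blue), with exact 95% Poisson intervals; a level of 0 is drawn open at 0.05, and intervals are cut off at 0.02. Neutrophils of Tumor 1 lay above those of Tumor 2 for Hilpda to Ccl4, with ratios of 224 for Hilpda and 2.24 for Il1b, and below them for S100a8 to mt-Cytb.

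The promoters of 4 of these genes are shown because they share a short sequence. Windows of 250 bases before to 50 bases after the start were read from RefSeq on the GRCm38.p6 build, 5′ to 3′ on the strand of the gene, and searched on both strands for GGG followed by any 3 bases and then TTCC, a core of NF-κB motifs chosen after the values had been seen. Capitals mark the matches, and matches on the 2 strands may overlap. The windows are chr5:90890995-90891294 (plus strand) for Cxcl1, chr5:90903649-90903948 (plus) for Cxcl2, chr5:90785851-90786150 (plus) for Cxcl3 and chr12:55492598-55492897 (minus) for Nfkbia.
Cxcl1: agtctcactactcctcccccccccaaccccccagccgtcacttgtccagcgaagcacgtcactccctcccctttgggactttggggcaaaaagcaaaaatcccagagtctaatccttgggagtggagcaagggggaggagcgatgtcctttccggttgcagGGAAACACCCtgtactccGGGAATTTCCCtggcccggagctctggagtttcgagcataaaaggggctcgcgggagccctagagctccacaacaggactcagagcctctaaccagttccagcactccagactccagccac
Cxcl2: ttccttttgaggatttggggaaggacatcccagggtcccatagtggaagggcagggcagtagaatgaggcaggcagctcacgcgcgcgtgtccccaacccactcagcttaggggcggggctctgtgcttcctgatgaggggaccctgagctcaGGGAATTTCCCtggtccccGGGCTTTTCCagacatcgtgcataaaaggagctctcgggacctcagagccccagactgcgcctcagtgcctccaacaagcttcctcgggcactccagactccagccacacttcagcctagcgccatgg
Cxcl3: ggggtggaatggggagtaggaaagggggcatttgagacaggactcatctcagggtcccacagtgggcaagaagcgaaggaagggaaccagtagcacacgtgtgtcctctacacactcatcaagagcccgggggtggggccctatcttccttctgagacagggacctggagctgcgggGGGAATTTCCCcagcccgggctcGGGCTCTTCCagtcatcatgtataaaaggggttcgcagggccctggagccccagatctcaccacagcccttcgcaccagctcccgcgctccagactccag
Nfkbia: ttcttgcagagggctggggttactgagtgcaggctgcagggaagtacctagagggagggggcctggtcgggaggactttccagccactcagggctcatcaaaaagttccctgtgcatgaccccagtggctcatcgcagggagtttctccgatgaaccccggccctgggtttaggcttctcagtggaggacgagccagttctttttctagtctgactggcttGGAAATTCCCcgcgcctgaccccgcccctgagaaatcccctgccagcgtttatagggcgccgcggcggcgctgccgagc

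The first 3 genes lie within 1 cluster of CXC chemokine genes on chromosome 5 and each had matches within 97 bases before the start, and Nfkbia had 1 match 29 bases before it. Over all promoters of the table, 1825 of 32851 held the letters (5.56%), or 1704 of 27025 genes (6.31%). Of the 27 genes called higher in Tumor 1, 24 had a promoter in the table, and 7 of these held a match (29.2%): Cxcl1, Cxcl2, Cxcl3, Hilpda, Il1rn, Nfkbia and Tgif1. Of the 28 called higher in Tumor 2, 19 had a promoter and 4 held a match (21.1%), Cd300ld, Csf3r, Ltb and Mcl1. When the cells admitted by G0s2 alone were left out, only Cxcl2 and Nfkbia of all these genes with a match kept their call. No test was made of these shares, and a match of letters does not show binding.

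Genes higher in Tumor 2 included 8 of the 9 mitochondrial genes tested, beside 9.93% of all genes. Mt-Co3, a subunit of cytochrome c oxidase, had 9 UMIs in Tumor 1 and 314 in Tumor 2, a ratio of Tumor 2 over Tumor 1 of 19.0 (9.90 to 42.0), and mt-Cytb, the cytochrome b of complex III, had 1 and 147 UMIs (ratio 80.2, interval 14.2 to 3188). For the 8 genes, mt-Cytb, mt-Co3, mt-Nd1, mt-Co2, mt-Nd4, mt-Atp6, mt-Co1 and mt-Nd2, the ratio ran from 13 to 80.2 in neutrophils and from 1.05 to 1.89 in macrophages. They are the transcripts behind the mitochondrial shares that did not overlap between the tumors.

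Among the other genes higher in Tumor 2, Ifitm1 had 21 UMIs in 8 cells of Tumor 1 and 158 in 22 cells of Tumor 2, a ratio of Tumor 2 over Tumor 1 of 4.10 (2.59 to 6.81), whereas macrophages of Tumor 1 were 6.42-fold above those of Tumor 2. Mcl1, an antiapoptotic BCL2 family member on which neutrophils depend, had no UMI in the 23 cells of Tumor 1 and 27 UMIs in 17 cells of Tumor 2, at least 4.91-fold higher in Tumor 2 against a floor of 3 UMIs. Cebpb, a transcription factor of emergency granulopoiesis, had 2 and 32 UMIs, a ratio of 8.73 (2.23 to 75.2). Csf3r had 6 and 49 UMIs but is a gate gene that the cells admitted by G0s2 alone lack by the rule, so nothing is read from its difference, and without the gate genes 27 of 276 genes were higher in Tumor 2. Ier2, an immediate early gene, had 5 and 56 UMIs, a ratio of 6.11 (2.47 to 19.5). The corresponding ratios of Tumor 2 over Tumor 1 in macrophages were 0.824 for Mcl1, 1.31 for Cebpb and 1.02 for Ier2. Of the 28 genes, 20 were higher in the macrophages of Tumor 2 by less than 4-fold, 8 went the other way and 0 were at least 4-fold higher.

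These calls rested in part on the cells admitted by G0s2 alone, 11 of 23 in Tumor 1. Without them, in a comparison added after the values were seen, 11 genes were called higher in Tumor 1, 8 of them among the 27, and 10 higher in Tumor 2, all of them among the 28 and 8 of them mitochondrial. The log2 ratio was then 4.47 for Hilpda, 3.74 for Nfkbia, 2.89 for Cxcl2 and 2.58 for Ccl3, and for Cxcl1 it was 1.89, under 4-fold. Of the genes named above as higher in Tumor 2, the mitochondrial genes and Ier2 kept their call. Ifitm1, Mcl1, Cebpb and Csf3r lost it. Ifitm1 had 13 UMIs in Tumor 1 and 158 in Tumor 2, a log2 ratio of Tumor 2 over Tumor 1 of 1.72. Mcl1 (0 and 27 UMIs) and Cebpb (1 and 32) lost it through the floor of 3 UMIs in Tumor 1, so no smaller difference is read for them. The mitochondrial share, the depth of the cells and the third gate gene moved together with the difference between the tumors, and their part in it was not tested.

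Counts of several chemokines varied widely between single neutrophils. With each cell thinned to 1000 UMIs, which left 7 cells of Tumor 1 and 19 of Tumor 2, the genes outside the gate with the highest variance relative to the mean in both libraries were Ccl4, Cxcl2, Cxcl3, Fth1, Malat1, Actb, Ftl1, Cstb, Cd14 and Ifitm3. Ccl4 had a variance over mean of 57.8 in Tumor 1 and 26.2 in Tumor 2, compared with 15.3 and 11.1 for Cxcl2. Among the gate genes, S100a8 had 58.5 and 32.5 and S100a9 had 31.2 and 28.1. Unthinned, Ccl4 was seen in 8 of 23 and 12 of 37 cells, and the 3 cells with the most UMIs held 80.8% of its UMIs in Tumor 1 and 75.7% in Tumor 2. Fth1 and Ftl1, the ferritin chains that store iron, were seen in 100% of the thinned cells of both libraries but at variances over mean of 7.14 and 24 for Fth1 and 12.1 and 5.31 for Ftl1.

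**Figure D5:**
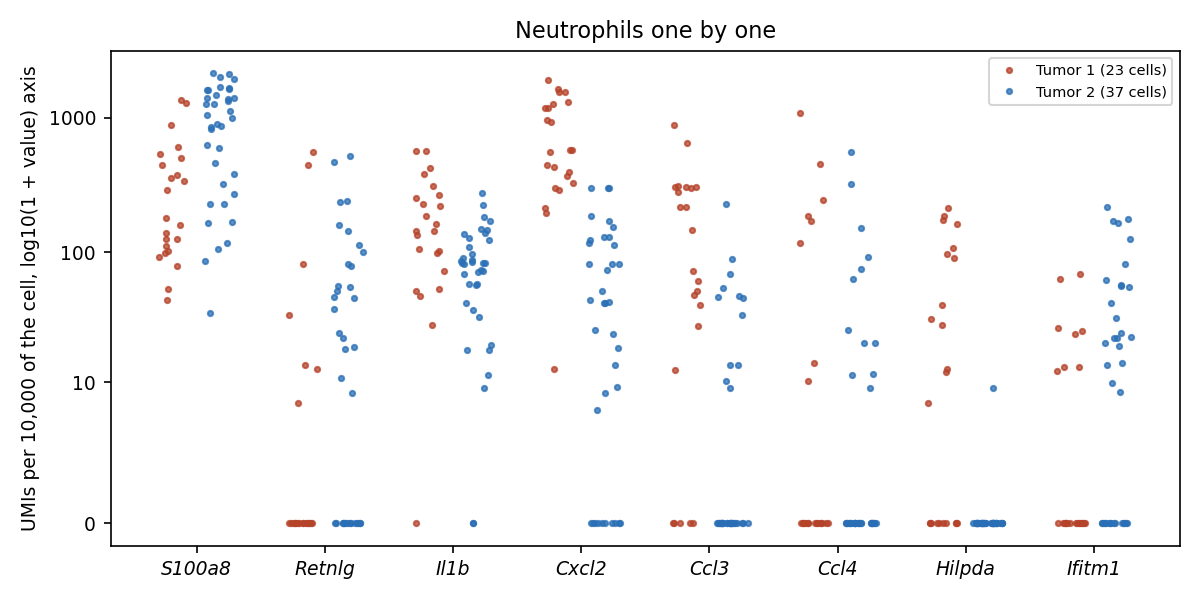
UMIs per 10000 UMIs of the cell for 8 genes in each of the 23 neutrophils of Tumor 1 (red) and 37 of Tumor 2 (blue), on an axis of log10(1 + value). Il1b was above 0 in 22 and 35 cells, Cxcl2 in 23 and 27, whereas Ccl4 was above 0 in 8 and 12 cells and Hilpda in 13 cells and 1 cell.

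Retnlg was concentrated in few cells of Tumor 1, where the 3 cells with the most UMIs held 94.9% of its UMIs, against 53.0% in Tumor 2. At 500 UMIs per cell, 1 neutrophil of Tumor 1 had both Retnlg and Ccl4, 5 had Retnlg only and 6 had Ccl4 only, and in Tumor 2 the numbers were 3, 17 and 5. Ccl3 and Hilpda were seen together in 10 of the 23 cells of Tumor 1, Ccl3 without Hilpda in 8 and Hilpda without Ccl3 in 2. In Tumor 2, Retnlg and Ifitm1 were seen together in 12 of 37 cells, Retnlg alone in 8 and Ifitm1 alone in 7. Across cells, the Spearman correlation between the summed granule and migration genes and the summed cytokine, suppression and hypoxia genes was -0.55 over 7 cells of Tumor 1 and -0.22 over 19 of Tumor 2 at 1000 UMIs. Without thinning it was 0.046 and 0.010 over all 23 and 37 cells, so its sign depended on depth, and cells of 1 library share their tumor and preparation.

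Shares of neutrophils with a UMI, at the same 500 UMIs per cell, were compared for 3 genes. Nfkbia was seen in 91.3% of the Tumor 1 cells (exact 95% interval 72.0 to 98.9%) and 24.3% of the Tumor 2 cells (11.8 to 41.2%), against 95.7% and 40.5% unthinned. The same shares for cells with an Epcam UMI, which express Nfkbia too, were 24.5% and 6.9%, and for macrophages 36.5% and 18.8%. Il1b was seen in 91.3% (72.0 to 98.9%) and 89.2% (74.6 to 97.0%) of the neutrophils. Nearly all of them thus had it in both tumors, while its level was 2.24-fold higher in Tumor 1. It was seen in 1.6% and 0.4% of the cells with an Epcam UMI and in 31.5% and 2.90% of macrophages. Ifitm1 was seen in 21.7% (7.46 to 43.7%) and 51.4% (34.4 to 68.1%) of the neutrophils, with intervals that overlap at their ends. Its shares were 0.1% and 0.2% of the cells with an Epcam UMI and 2.54% and 0% of macrophages.

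The 3 neutrophils of the other libraries had some of the same transcripts. The neutrophil of Prepuberty 2 had 778 UMIs and 211 genes, with 21 UMIs of S100a8, 5 of S100a9, 155 of Cxcl2, 51 of Ccl3 and 16 of Ccl4. It had 2 UMIs of Retnlg and 0 of Cxcr2, Csf3r, G0s2 and Il1b, and it was among the cells left out when doublets were removed. The 2 neutrophils of DCIS 1 had 2567 UMIs together, with 154 of S100a8, 193 of S100a9, 96 of Ccl3, 64 of Cxcl2, 23 of Lcn2 and 16 of Il1b. These are values of single cells and are not compared with the Tumor libraries.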

How the data were processed

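The authors deposited 1 matrix of raw UMI counts per library for 6 droplet-based single-cell RNA libraries, made with Cell Ranger 3.0.2 per the file headers. The study's methods give Cell Ranger for demultiplexing, barcode and UMI processing and gene counting, and the labels list the mm10 build. The matrices hold 31055 features, and duplicate symbols were summed to 31019. Cells with fewer than 200 genes or 10% or more mitochondrial UMIs were left out, which kept 22244 of 23835 barcodes. No doublets were removed; removal with Scrublet (scanpy 1.11.5) was an alternative.

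The members and gene lists were chosen with earlier results of these data known. UMIs were summed per library and class and expressed per 10000 UMIs, with exact Poisson or binomial 95% intervals that cover counting error only. Genes were called at 4-fold with 20 UMIs, with counts under 3 raised to 3. Folds and ratios used the counts as they stood, whereas log2 ratios and values given as at least so many fold used the raised counts. The procedure was tested on simulated data. Named were the gate genes, list members with at least 20 UMIs or as absent markers, the 15 genes highest and 10 lowest against macrophages, the 8 per direction whose interval bound lay farthest from 1 between the tumors, and the 10 most variable genes. The motif, the ribosomal genes and some further examples from the lists were chosen after their values were seen. To compare single cells, UMIs were thinned to 1000 or 500 per cell. No model was fitted between states, since too few neutrophils came from Prepuberty and DCIS. Promoters came from RefSeq (GRCm38.p6) and gene positions from GENCODE annotation on GRCm38. Calculations used Python 3.11.15 with numpy 2.4.6, scipy 1.17.1, pandas 2.3.3 and matplotlib 3.10.9, and R 4.3.3 with edgeR 4.0.16 for TMM scaling only. Some genes of the lists are not reported here.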

Additional observations from a re-analysis of the deposited data

How the results depend on the processing

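The neutrophils were shallow, so limits on depth decided how many were found. With a minimum of 500 genes the share was 0 in Prepuberty 2, DCIS 1 and Tumor 1 and 0.279% in Tumor 2, and with doublets removed it was 0 in Prepuberty 2. Of the cells that had a Ptprc UMI or were neutrophils, neutrophils made up 0.901% in Prepuberty 2, 1.27% in DCIS 1, 5.97% in Tumor 1 and 12.5% in Tumor 2. With cells admitted by G0s2 alone left out, an alternative chosen after seeing the data, the share in Tumor 1 was 0.268%, 22 genes were called higher than in macrophages, and 11 and 10 genes were called higher in Tumor 1 and Tumor 2. Against macrophages, TMM scaling gave 171 genes called lower, a minimum of 50 UMIs gave 11 called higher and no minimum gave 119. Leaving out either Tumor library gave 68 to 104 genes called higher and 124 to 198 called lower, where a call then rested on the remaining library. Between the tumors, a minimum of 50 UMIs gave 12 genes higher in Tumor 1 and 11 in Tumor 2, and no minimum gave 57 higher in Tumor 1. The Spearman correlation of the list sums was -0.18 in Tumor 1 and -0.28 in Tumor 2 at 500 UMIs, and 0.046 and 0.010 without thinning. None of the 25 genes named against macrophages and the 16 named between the tumors changed direction under the alternatives run for them. Cxcl3, called higher in Tumor 1 but not among the 16, did change direction between the tumors. Its log2 ratio was -0.62 without the cells admitted by G0s2 alone. No paired analysis was possible because no result comes from a test and only the Tumor libraries held enough neutrophils, and alternative fits for a comparison of states (DESeq2, no filter on low counts, each library left out) were not run for the same reason.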

Other observations

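Ligands of CXCR2 and of the G-CSF receptor, and related signals, were measured in the cells outside the gate. Csf3, which encodes G-CSF, stood at 0.728 and 1.11 UMIs per 10000 in Prepuberty 1 and 2, at 0.712 and 0.903 in DCIS 1 and 2, and at 0.0290 and 0.0113 in Tumor 1 and 2. Cxcl1 stood at 13.5 and 22.7 in Prepuberty, 19.6 and 23.0 in DCIS, and 1.73 and 0.257 in Tumor. Cxcl5, another CXCR2 ligand, stood at 7.79 and 23.8, then 1.71 and 4.02, then 0.142 and 0.247 in the same order. Of the 11 ligand genes measured, 9 were lower in both Tumor libraries, which held 60 of the 63 neutrophils, than in each of the other 4, beside 12.7% of the 17224 genes with at least 20 UMIs in these cells; the groups differ in tissue, and the genes were not tested. The exceptions were Il17a, with 0 UMIs in the other 4 libraries and 15 and 43 in Tumor 1 and 2, and Ppbp, which was highest in Tumor 1, at 0.0557 per 10000. Tissue, dissociation and state cannot be told apart in these values, and no test was made.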
